A study of Homo sapiens with 12 samples.

Results

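The 284 protein-coding genes of the long arm of chromosome 7 (7q) described here were more abundant in venetoclax-resistant than in parental SUDHL16 cells, with a median 1.33-fold difference, and showed no such shift in SUDHL6 cells. They were chosen by position and level, as the genes that start at 60 Mb or beyond on chromosome 7 (GRCh38) and had a mean of 5 CPM (the gene's share of the library's total count, scaled in the usual way) or more over the SUDHL16 libraries other than CE-26. The arm itself was selected on the SUDHL16 ratio of resistant to parental cells, so every SUDHL16 ratio below is a description and carries no test. Of 60675 identifiers in the files, 604 were protein-coding genes in this region, 298 of them reached the level, and 14 of these were left out by name (8 listed symbols, and symbols starting ABC, PSM or SLC25).

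The study asked how diffuse large B-cell lymphoma cells become resistant to venetoclax, an inhibitor of the anti-apoptotic protein BCL2. RNA was sequenced from 4 groups of 3 libraries, namely parental SUDHL6 cells (CE-7, CE-8 and CE-9), venetoclax-resistant SUDHL6 cells (CE-10, CE-11 and CE-12), parental SUDHL16 cells (CE-25, CE-26 and CE-27) and venetoclax-resistant SUDHL16 cells (CE-28, CE-29 and CE-30). Each resistant line was raised from its parental line by months of exposure to rising venetoclax and was kept in the drug, growing at 10 or more times the original half-maximal inhibitory concentration. Each resistant group is therefore 1 selected population, and its difference from the parental cells holds the selection and any effect of the drug in culture. The paper states that cells were moved to fresh media for experiments, and whether the drug was present when RNA was taken is not given. The lines were sequenced on different instruments and with different kits (SUDHL6 with NEBNext Ultra II, SUDHL16 with Illumina Stranded Total RNA with Ribo-Zero Plus), so line and library method cannot be told apart.

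Chromosome arms can be gained or lost as a unit in tumor cells, and transcript levels of many genes then move with the number of gene copies while feedback or cell-type-specific control holds others in place. The long arm of chromosome 7 is recurrently gained in lymphoma, and it carries genes of growth signaling (BRAF, RHEB), chromatin control (KMT2C, KMT2E, TRRAP), interferon responses (IRF5, SAMD9, SAMD9L) and mitochondrial metabolism (MDH2, DLD). DNA copy number was not measured in the data used here. In bulk RNA, fewer cells with a transcript and less of it per cell cannot be told apart.

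Depth was 14335460 to 22068221 reads in the SUDHL16 libraries other than CE-26, 4131927 in CE-26 and 33992784 to 40885665 in SUDHL6. CE-26 stood apart, with 55.4% of its reads on protein-coding genes (84.3 to 90.2% in the other SUDHL16 libraries) and 31.9% on identifiers without a match in the annotation (at most 5.06% in the others). The 6 B-cell markers summed to 1640 CPM in CE-26, the lowest value, and to 4163 CPM in the highest library. T-cell markers summed to 1.62 to 8.23 CPM in parental and 12.3 to 14.5 CPM in resistant SUDHL16 cells, mostly from CD3E (1.26 to 3.15 against 11.6 to 14.1 CPM), with CD3D and CD2 at 0 in every resistant library, and to at most 0.223 CPM in SUDHL6. Monocyte and epithelial markers summed to at most 4.36 CPM in any library. Of the 3 fibroblast markers, COL1A1 had no read in any parental SUDHL16 library, and the list summed to 21.1 to 24.9 CPM in parental and to at most 0.453 CPM in resistant SUDHL16 cells, mostly from DCN. The part of these reads in any difference below was not tested.

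The log2 ratio used throughout is the log2 of mean resistant over mean parental CPM, minus the median of that value over the 9743 protein-coding genes with 5 CPM or more in SUDHL16 (a shift of 0.0015, or 0.20 with CE-26 kept). Over the 284 members it had a median of 0.42 with an interquartile range of 0.03 to 0.65, and 215 members (75.7%) lay above 0 against 69 below. With CE-26 kept the median was 0.40 and 207 members lay above 0. The 147 genes of the short arm (7p), picked by the same level, had a median of 0.01 with 76 above 0, and the 9298 genes on other chromosomes had a median of -0.01. Among whole chromosomes, chromosome 20 had the highest median (0.55, 277 genes) and chromosome 7 the next (0.25, 445 genes), followed by chromosome 15 at 0.14.

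**Figure D1:**
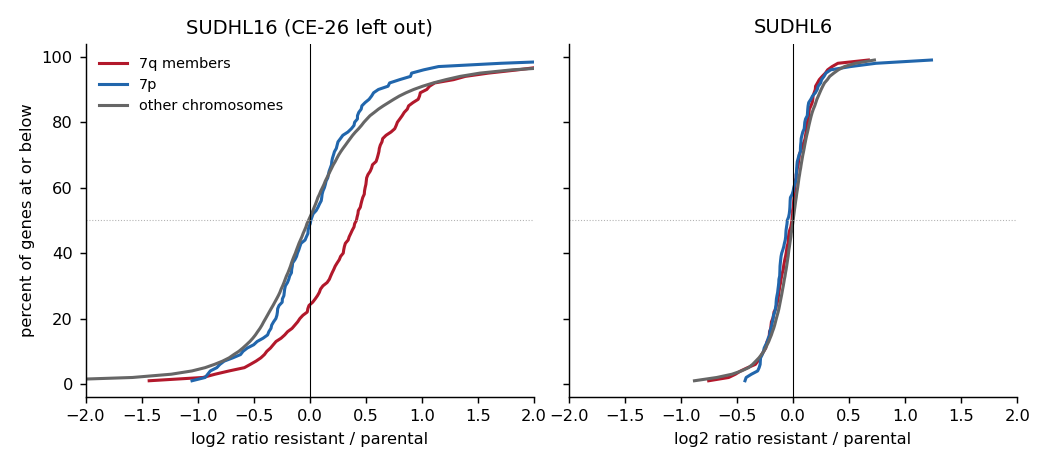
Cumulative share of genes (y axis, percent) at or below each log2 ratio of resistant to parental cells (x axis, shown from -2 to 2) for the 7q members, 7p genes and genes on other chromosomes, in SUDHL16 without CE-26 (left) and SUDHL6 (right). The 7q curve lies to the right in SUDHL16, with a median of 0.42 against 0.01 for 7p, and overlies the others in SUDHL6.

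The shift was broad and moderate. The interquartile range of the members was 0.62 wide on the log2 scale, against 0.68 over all expressed protein-coding genes. The 3 resistant libraries all lay above the 2 parental ones for 121 members and all below for 27, and the groups overlapped for 136. Over all 9743 genes, 22.4% lay above and 22% below. A change of 2-fold or more upward was seen in 31 members (10.9%, against 9.05% of all genes) and downward in 5 (1.76%, against 4.25%). In an edgeR fit of all 6 SUDHL16 libraries, with calls at an adjusted p under 0.05 and 1.5-fold or more, 14 members were raised and 4 lowered, where 3.20% of all 15708 genes tested were raised and 2.10% lowered (4.52% and 2.10% of the 9742 protein-coding genes at the members' level). Without CE-26 the same fit raised 27 and lowered 5, where 6.73% of all 16280 genes tested were raised and 3.32% lowered. These counts rest on the contrast that selected the arm and are not read further.

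The share of protein-coding reads on the members differed between the SUDHL16 groups. It was 2.04% in CE-25, 1.94% in CE-26 and 2.02% in CE-27, and 2.64%, 2.58% and 2.58% in resistant libraries CE-28, CE-29 and CE-30. No parental library reached the lowest resistant one. In SUDHL6 the share stayed between 2.11% and 2.12% in all 6 libraries. The median member, relative to its mean over the line, stood at -0.20 in CE-25, -0.04 in CE-26 and -0.21 in CE-27 on the log2 scale and at 0.17, 0.16 and 0.14 in the resistant libraries. The 7p genes stood between -0.02 and 0.04 in the same libraries except CE-26, where they stood at 0.13.

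**Figure D2:**
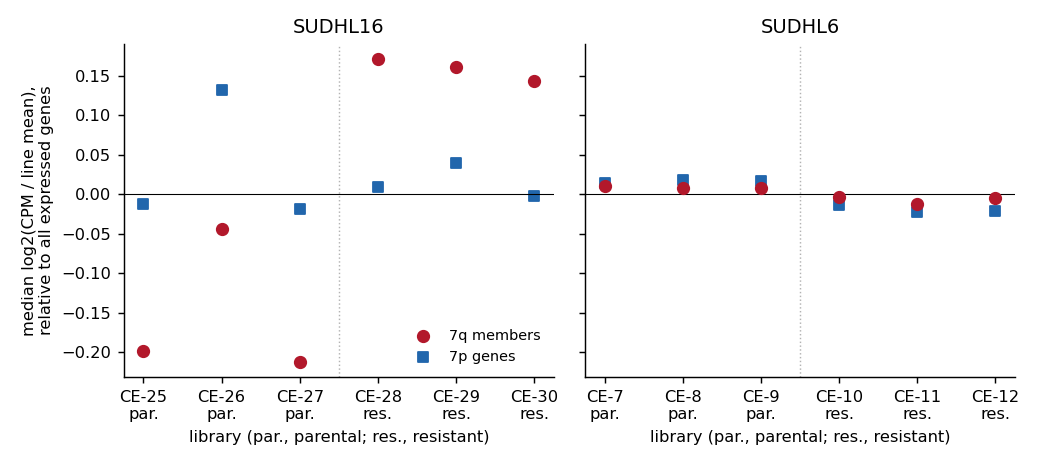
Median log2 of CPM over the line's mean (y axis, relative to all expressed genes) for the 7q members (circles) and 7p genes (squares) in each library (x axis) of SUDHL16 (left) and SUDHL6 (right). In SUDHL16 the 3 resistant libraries sit at 0.14 to 0.17 for 7q and the parental ones at -0.04 or below, while all SUDHL6 values lie between -0.023 and 0.018.

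Higher ratios ran over most of the arm, with exceptions that included the bin next to the centromere and the bin at 140 to 150 Mb. In bins of 10 Mb, the members starting at 70 to 80 Mb had a median of 0.52 (25 of 34 above 0), those at 90 to 100 Mb 0.43 (35 of 41), those at 100 to 110 Mb 0.46 (63 of 69), those at 120 to 130 Mb 0.62 (24 of 27) and those at 130 to 140 Mb 0.47 (20 of 26). Next to the centromere, the 19 members at 60 to 70 Mb had a median of 0.09 with 11 above 0. The 28 members at 140 to 150 Mb ran the other way, with a median of -0.14, 12 above 0, 2 with all resistant libraries higher and 8 with all lower (22.4% and 22% of all genes). At the end of the arm, 150 to 160 Mb, the median was 0.31 (17 of 24). It was 0.11 at 150 to 155 Mb (8 of 14) and 0.45 at 155 to 160 Mb (9 of 10). In bins of 5 Mb the boundaries were finer, with a median of 0.16 at 70 to 75 Mb (10 of 18 above 0) against 0.62 at 75 to 80 Mb (15 of 16), and of 0.51 at 130 to 135 Mb (13 of 13) against 0.09 at 135 to 140 Mb (7 of 13). The gene-poor bins at 80 to 90 Mb (6 members, median -0.06) and 110 to 120 Mb (10 members, 0.21) hold few genes. In the latter, the 6 members at 110 to 115 Mb had a median of -0.15 and the 4 at 115 to 120 Mb 0.68. Taken from 70 to 140 Mb, limits set after the values were seen, 213 members had a median of 0.47 and 175 lay above 0.

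**Figure D3:**
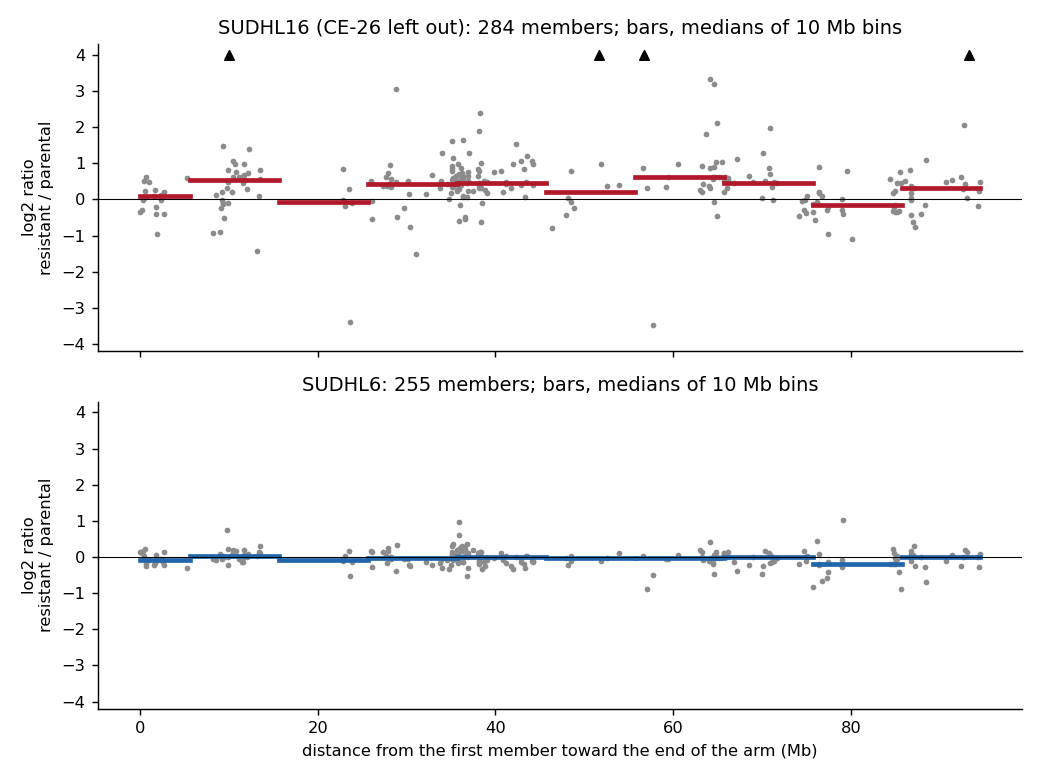
Log2 ratio of resistant to parental cells (y axis) for each member by its distance from the member nearest the centromere (x axis, Mb), in SUDHL16 without CE-26 (284 members) and SUDHL6 (255 with 5 CPM or more there), with bars at the medians of 10 Mb bins. Bars reach 0.62 in SUDHL16 and fall to -0.14 near 80 Mb of distance, while SUDHL6 bars stay close to 0 except for -0.19 in that same bin; triangles mark CLIP2, TFEC, CPED1 and PTPRN2, which lie above the axis.

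The members' median lay above that of all genes in each class of level, base composition and length. With all expressed genes split into 3 classes of equal size, the members' median was 0.43, 0.49 and 0.33 from low to high CPM, 0.37, 0.30 and 0.49 from low to high GC content, and 0.49, 0.42 and 0.34 from short to long exon length. Against all genes of the same class the difference ran from 0.32 to 0.48. Per kilobase of exon, the median member stood at 9.35 CPM in SUDHL16, and GNB2, a G-protein beta subunit, and MTPN, an actin-capping regulator, stood highest at 124.6 and 124.3 CPM per kilobase. GNB2 had 262 and 249 CPM in parental CE-25 and CE-27 and 433, 398 and 334 in resistant cells, with all resistant libraries above (log2 ratio 0.60, 0.72 with CE-26). MTPN had 381 and 384 CPM in parental cells and 377, 663 and 545 in resistant cells, and its groups overlapped (0.47, 0.645 with CE-26).

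At the high end stood members that the parental cells hardly expressed. CPED1 (chr7:120988697-121297442), a protein with a cadherin-like domain, had no read in CE-25 and CE-27, 3.15 CPM (13 reads) in CE-26, and 62.3, 72.9 and 61.0 CPM in the resistant libraries. Set against 3 reads over CE-25 and CE-27, it was at least 692-fold higher without CE-26, a bound that does not hold once the 13 reads of CE-26 are kept. TFEC (chr7:115935148-116159896), a transcription factor of the MiT family known from myeloid cells, also had no read in these 2 parental libraries, 2.42 CPM (10 reads) in CE-26, and 8.79, 15.2 and 26.6 CPM in resistant cells. Without CE-26 it was at least 179-fold higher on the same floor, a bound that also does not hold with CE-26 kept. CLIP2 (chr7:74289407-74405935), which links membranes to microtubules, went from 1.44 and 1.92 CPM in CE-25 and CE-27 (13.3 in CE-26) to 272, 151 and 354 CPM, a log2 ratio of 7.27 without and 5.34 with CE-26. For these 3 genes every resistant library lay above every parental one, CE-26 included.

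PTPRN2, a phosphatase-like receptor of secretory vesicles, had 1.20 and 0.199 CPM in CE-25 and CE-27, 6.53 in CE-26, and 14.6, 17.7 and 20.4 in resistant cells (log2 ratio 4.65, 2.53 with CE-26). HILPDA, a hypoxia-inducible protein of lipid droplets, had 7.07 and 5.76 CPM against 38.4, 137 and 18.7, so its resistant libraries differed widely among themselves (mean 64.6 ± 63.1, SD, n = 3), and its log2 ratio was 3.33 (2.69 with CE-26). RASA4, a Ras GTPase-activating protein, had 32.7 and 33.9 CPM against 197, 119 and 205 (log2 ratio 2.38, 2.16 with CE-26). Reads of RASA4 may have been split with its near-identical copy RASA4B, which makes its value uncertain. In all, 15 members reached 5 CPM in resistant cells only and 3 in parental cells only, and such members passed the level through the group in which they are high.

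At the low end, AASS (chr7:122064583-122144308), an enzyme of lysine breakdown, went from 42.6 and 52.1 CPM in CE-25 and CE-27 (42.1 in CE-26) to 3.49, 4.73 and 4.53 in resistant cells, 11.2-fold lower. ADAM22 (chr7:87934143-88202889), a catalytically inactive ADAM protein of the cell surface, went from 27.2 and 26.8 CPM (17.7 in CE-26) to 2.72, 2.39 and 2.63, 10.5-fold lower. For both genes every resistant library lay far below every parental one. PON2, an antioxidant lactonase, had 19.5 and 16.4 CPM against 7.67, 6.02 and 5.17 (log2 ratio -1.52, -1.51 with CE-26), and PTPN12, a cytosolic tyrosine phosphatase, had 38.4 and 34.4 against 10.0, 16.1 and 14.9 (-1.42, -1.83 with CE-26). TPST1, a tyrosylprotein sulfotransferase, DENND11 and TYW1B had log2 ratios of -0.96 to -0.94 (-1.02 to -0.82 with CE-26). The groups of TYW1B overlapped once CE-26 was kept, and TYW1B has a near-identical copy, TYW1.

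**Figure D4:**
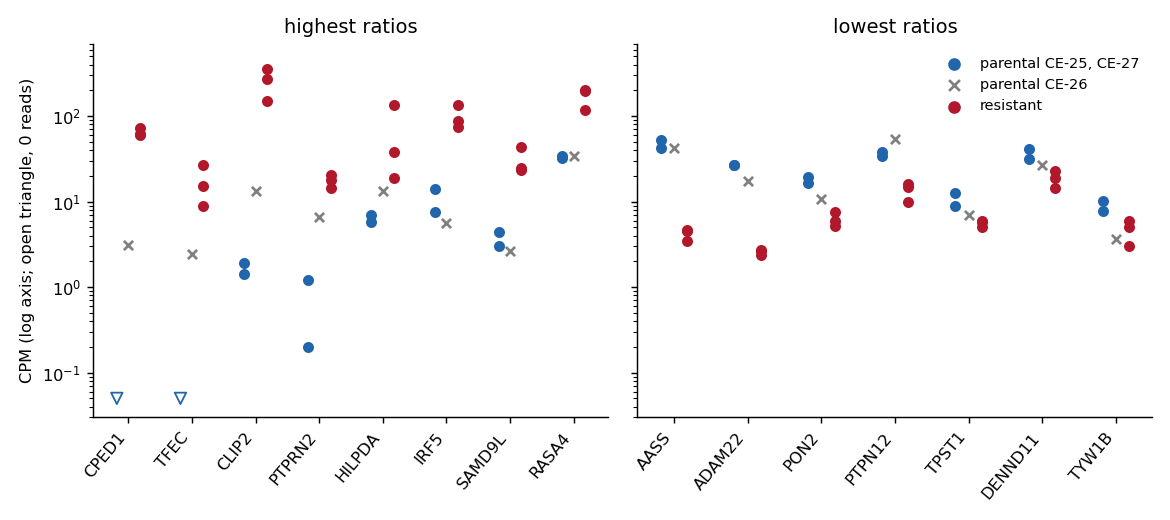
CPM (y axis, log scale) of the 8 members with the highest and 7 of those with the lowest SUDHL16 log2 ratio among those with separate groups, by library, with resistant libraries in red, parental CE-25 and CE-27 in blue and CE-26 as a grey cross. Open triangles mark libraries with no read; AASS and ADAM22 stand at 2.39 to 4.73 CPM in resistant cells and at 17.7 CPM or above in parental ones.

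Members with roles in interferon and immune responses had the highest median of the function lists, which were written from general knowledge. TFEC and SAMD9L of this list reached 5 CPM in resistant cells only. They passed the level through the group in which they are high, so the rank of the list and its counts are not read further. The 12 members had a median of 0.56 with 9 above 0 (75%, against 75.7% of all members). Of them, 7 had all resistant libraries higher and none all lower (121 and 27 of the 284 members, 22.4% and 22% of all genes). TFEC and SAMD9L are counted in the 9 and in the 7. IRF5, a transcription factor of Toll-like receptor and interferon signaling, had 7.49 and 14.1 CPM in CE-25 and CE-27 (5.57 in CE-26) against 86.8, 75 and 134, 9.12-fold higher. SAMD9L and SAMD9 are neighboring interferon-inducible genes that restrain growth and viral replication. SAMD9L had 3.0 and 4.37 CPM (2.66 in CE-26) against 24.9, 23.7 and 43.7, 8.34-fold higher, and SAMD9 had 52.3 and 41.9 CPM (20.6 in CE-26) against 56.9, 69.8 and 72.2, a log2 ratio of 0.49 (0.59 with CE-26). TSPAN33, a tetraspanin of activated B cells, had 93.4 and 110 CPM against 175, 170 and 281 (1.03, 1.16 with CE-26). ZC3HAV1, an antiviral RNA-binding protein, had overlapping groups at -0.29 (-0.195 with CE-26), and TRIM56, a ubiquitin ligase of innate sensing, went from 0.45 to -0.02 once CE-26 (199 CPM) was kept.

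Because interferon-inducible genes carry a known response element, the 250 bases upstream of the RefSeq gene start (GRCh38.p14) were searched for its core, GAAANNGAAA, on both strands. Of 240 members found in the promoter table, 6 (2.5%) held it, against 3.02% of all 35116 promoters and 2.46% of those of genes expressed in SUDHL16. Among the 10 interferon and immune members in the table, 4 held it (NCF1, SAMD9, TFEC and PARP12). The other holders were TMEM140 (log2 ratio 1.98, all resistant libraries higher) and ZSCAN21 (0.43, groups overlapping), which are not in that list. The 150 bases nearest the start are shown for the 4 members of that list that the values above turn on, 5′ to 3′ on the strand of the gene, with the core in capitals. SAMD9 (chr7:93117980-93118129, minus strand) and TFEC (chr7:116030764-116030913, minus strand) held the core, at 136 and 42 bases before the start, and SAMD9L (chr7:93148386-93148535, minus strand) and IRF5 (chr7:128937777-128937926, plus strand) did not hold these letters in the window. The RefSeq start used for TFEC lies inside the gene span given above, not at its upstream end, and which start the cells used was not tested.
SAMD9: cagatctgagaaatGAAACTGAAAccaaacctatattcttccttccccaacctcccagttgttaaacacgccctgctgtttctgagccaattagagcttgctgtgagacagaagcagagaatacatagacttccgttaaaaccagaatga
TFEC: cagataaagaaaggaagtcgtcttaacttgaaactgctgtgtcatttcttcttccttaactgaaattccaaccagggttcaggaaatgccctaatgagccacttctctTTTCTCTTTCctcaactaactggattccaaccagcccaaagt
SAMD9L: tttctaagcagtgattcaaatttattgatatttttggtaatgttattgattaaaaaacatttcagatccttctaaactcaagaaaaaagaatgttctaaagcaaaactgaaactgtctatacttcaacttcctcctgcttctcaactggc
IRF5: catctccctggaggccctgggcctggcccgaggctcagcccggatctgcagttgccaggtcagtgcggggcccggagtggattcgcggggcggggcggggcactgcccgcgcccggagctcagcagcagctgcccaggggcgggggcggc
SAMD9L, with the larger ratio of the neighboring pair, lacked an exact match to the core that SAMD9 held. Its window holds aaaactgaaa, which differs from the core only in the first letter. Near matches were not searched for. A match of letters is a description and does not mark a bound site.

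Transcription and chromatin genes followed the arm as a whole, with a median of 0.40 over 21 members and 16 above 0. All resistant libraries were higher for 11 and lower for 4 (121 and 27 of the 284 members, 22.4% and 22% of all genes). TRRAP, a scaffold of histone acetyltransferase complexes, had 263 and 248 CPM in CE-25 and CE-27 against 297, 353 and 384 (log2 ratio 0.43, 0.55 with CE-26). KMT2E, a chromatin reader, had 130 and 116 CPM against 171, 233 and 239 (0.80, 0.89 with CE-26), and CUX1, a homeodomain repressor, 366 and 355 against 429, 400 and 437 (0.23, 0.33 with CE-26). KMT2C, a histone H3 lysine methyltransferase in the 150 to 160 Mb bin (median 0.31), ran the other way. It had 594 and 489 CPM against 343, 440 and 439 (-0.41, -0.29 with CE-26). Its groups overlapped once CE-26 (220 CPM) was kept. BAZ1B, a bromodomain kinase of the Williams-Beuren region, was also lower, with 263 and 249 CPM against 214, 195 and 243 (-0.24, -0.185 with CE-26), and CE-26 at 133 CPM lay below them.

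DNA replication, repair and telomere genes had a median of 0.41 over 12 members, with 10 above 0. The groups were separate upward for 6 and downward for none (121 and 27 of the 284 members, 22.4% and 22% of all genes). POT1, which caps single-stranded telomeric DNA, had 50.1 and 35.4 CPM in CE-25 and CE-27 (20.3 in CE-26) and 59.5, 104 and 87.2 in resistant cells (log2 ratio 0.97, 1.05 with CE-26). XRCC2, a DNA repair protein, had 117 and 142 CPM in CE-25 and CE-27, 465 in CE-26, and 198, 112 and 41.1 in resistant cells, so that its log2 ratio went from -0.15 to -1.25 with CE-26. NCAPG2, a condensin II subunit, had overlapping groups (-0.18, -0.11 with CE-26). The 22 members of RNA processing and translation had a median of 0.26 with 15 above 0. SND1, a component of RNA-silencing and splicing complexes, had 292 and 291 CPM against 353, 445 and 371 (0.42, 0.545 with CE-26), and RBM33, an RNA export factor, 183 and 193 against 232, 260 and 329 (0.54, 0.63 with CE-26). EIF4H, a helicase cofactor of translation initiation, had 370 and 347 CPM against 312, 415 and 269 and did not separate (-0.11, 0.01 with CE-26).

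The list of mitochondrial proteins had a median of 0.36 over 19 members, with 15 above 0, which became 12 once CE-26 was kept. As written, this list also holds HILPDA, a protein of lipid droplets, and NSUN5, which is also in the RNA processing list. MDH2, the mitochondrial malate dehydrogenase, had 122 and 129 CPM in CE-25 and CE-27 (70.9 in CE-26) against 229, 193 and 320, a 1.97-fold ratio. DLD, the E3 subunit shared by the pyruvate and 2-oxoglutarate dehydrogenase complexes, had 71.9 and 65.6 CPM (42.1 in CE-26) against 117, 158 and 200, a 2.30-fold ratio. ATP5MF, a subunit of ATP synthase, had 70.4 and 63.1 CPM against 115, 71.4 and 106 (log2 ratio 0.54, 0.35 with CE-26), and shares its locus with the ATP5MF-PTCD1 readthrough. The 20 metabolic enzymes had a median of 0.32 with 12 above 0. The groups were separate upward for 8 and downward for 6 (121 and 27 of the 284 members, 22.4% and 22% of all genes). AASS, which reached 5 CPM in parental cells only, is counted in the 6. NAMPT, which makes the NAD precursor nicotinamide mononucleotide, had 95.9 and 77.9 CPM against 110, 237 and 162 (0.97, 0.89 with CE-26). CYP51A1, the lanosterol demethylase of cholesterol synthesis, had overlapping groups (0.37, 0.34 with CE-26).

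Signaling genes had a median of 0.31 over 13 members, with 10 above 0. BRAF, a kinase of the MAPK cascade, had 107 and 86.9 CPM in CE-25 and CE-27 against 82.4, 121 and 131, and its groups overlapped (log2 ratio 0.20, 0.31 with CE-26). RHEB, the GTPase that activates mTORC1, was lower, with 149 and 144 CPM against 97.7, 96.6 and 64.7 (-0.76, -0.55 with CE-26), though CE-26 stood at 38.0 CPM, below all resistant libraries. The groups of CDK14, a cyclin-dependent kinase, and YWHAG, a 14-3-3 adaptor, overlapped (-0.05 and 0.28, 0.08 and 0.33 with CE-26). Protein folding and ubiquitin genes had a median of 0.44 over 14 members with 12 above 0. UBE2H, a ubiquitin-conjugating enzyme, had 103 and 91.7 CPM against 158, 162 and 284 (1.05, 1.13 with CE-26). The ubiquitin ligase UBE3C and the ligase-complex subunit MKLN1 had overlapping groups (0.43 and 0.44, 0.52 and 0.57 with CE-26). The list of membrane traffic and cytoskeleton genes had a median of 0.34 over 22 members, with 18 above 0. The groups were separate upward for 9 and downward for none (121 and 27 of the 284 members, 22.4% and 22% of all genes). This list also holds ZKSCAN1, a zinc finger gene, and CLIP2, which reached 5 CPM in resistant cells only. Both are counted in the 18 and in the 9, and these counts are not read further. ARPC1B, an Arp2/3 complex subunit, had 141 and 168 CPM against 337, 189 and 320 (0.87, 0.83 with CE-26). ARF5, a small GTPase of the Golgi, and SYPL1, a vesicle membrane protein, had overlapping groups (0.20 and 0.32, 0.37 and 0.53 with CE-26). The 25 zinc finger genes had a median of 0.26 with 17 above 0 and none at a 2-fold difference. ZNF655 and ZKSCAN1 had all resistant libraries above (0.35 and 0.24, 0.37 and 0.26 with CE-26), and the groups of ZNF800 overlapped (0.26, 0.40 with CE-26). The 16 members of the Williams-Beuren region, in the 70 to 80 Mb bin, had a median of 0.19 with 9 above 0, CLIP2 among them. This region holds near-identical copies of GTF2I and NCF1 that could have split reads.

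SUDHL6 values were not used by the rule that chose the members, and there the members lay around 0. Of the members, 255 had 5 CPM or more in SUDHL6, their median log2 ratio was -0.01 and 118 (46.3%) lay above 0. All resistant libraries lay above all parental ones for 70 members and below for 85, where 29.5% of all 9461 expressed genes lay above and 30.2% below. With edgeR's quasi-likelihood test on each line's 6 libraries, adjusted over all 16662 genes tested, 8 of 279 members tested were raised and 10 lowered, against 4.31% of all genes raised and 4.65% lowered (2.72% and 3.26% of the 9534 protein-coding genes at the members' SUDHL16 level). The members were thus called at about the rate of other genes of their kind. Between lines, over the 255 genes, Pearson's r of the log2 ratios was 0.10 and Spearman's rho 0.11, a description in which all points of a line share its 5 or 6 libraries. Of these genes, 93 lay above 0 in both lines, 105 in SUDHL16 only, 25 in SUDHL6 only and 32 in neither.

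The raised members in SUDHL6 were few and of mixed function. STAG3, a meiotic cohesin subunit, had 68.0, 66.8 and 70.1 CPM in parental CE-7, CE-8 and CE-9 and 134, 136 and 134 in resistant CE-10, CE-11 and CE-12 (edgeR log2 fold change 0.97 ± 0.03 SE, adjusted p = 8.74e-11). LIMK1, which phosphorylates cofilin, went from 19.8 to 20.7 CPM in the 3 parental libraries to 33.3 to 33.9 CPM in the resistant ones (0.73 ± 0.05, edgeR adjusted p = 1.76e-07). SMIM30, a small membrane protein, rose from 1.38, 1.77 and 1.25 to 6.35, 6.60 and 6.41 (2.14 ± 0.14, edgeR adjusted p = 1.54e-07). ZYX, a focal adhesion protein, rose by 1.02 ± 0.11 (edgeR adjusted p = 9.70e-06), and PVRIG, an inhibitory immune receptor, by 0.62 ± 0.08 (adjusted p = 6.81e-05). PVRIG fell under the 1.5-fold limit without CE-7 (0.55) or CE-10 (0.53). None of these 5 genes had separate groups in SUDHL16.

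SAMD9L and CLIP2 were raised in SUDHL6 as well as higher in SUDHL16. SAMD9L went from 0, 0.0883 and 0.196 CPM in parental to 1.10, 1.12 and 0.884 CPM in resistant SUDHL6 cells (edgeR log2 fold change 3.32 ± 0.51 SE, adjusted p = 2.39e-04), levels far under those of SUDHL16. CLIP2 went from 0.790, 1.12 and 0.905 to 1.57, 1.22 and 1.79 CPM (0.69 ± 0.23, edgeR adjusted p = 0.0299), where SUDHL16 reached 354 CPM. The CLIP2 call in SUDHL6 was lost without CE-7, CE-9, CE-10 or CE-12 (edgeR adjusted p = 0.0783 to 0.117), without the filter on low counts (0.0718) and in 1 fit of all 12 libraries (1.0). SAMD9, next to SAMD9L, moved down in SUDHL6, from 35.1, 34.3 and 32.6 to 24.8, 26.9 and 25.7 CPM, under the 1.5-fold limit (-0.41 ± 0.05, edgeR adjusted p = 4.78e-05). IRF5 stood at 8.37, 5.68 and 8.0 CPM in parental and 4.95, 5.53 and 5.33 in resistant SUDHL6 cells, also under that limit (-0.49 ± 0.14, edgeR adjusted p = 0.0142).

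Of the lowered members, LRRC4, a synaptic adhesion protein, moved in opposite directions in the lines. It fell from 3.63, 3.38 and 3.20 to 0.622, 0.596 and 0.552 CPM in SUDHL6 (edgeR log2 fold change -2.53 ± 0.17 SE, adjusted p = 1.78e-07) and stood at 4.26 and 4.90 CPM in SUDHL16 CE-25 and CE-27 against 21.6, 13.3 and 12.9 in resistant cells. It lies inside SND1 on the other strand, and since the sources do not say whether counting used strand, reads of the 2 genes may be mixed. FAM3C, a secreted protein, fell from 109, 102 and 106 to 55.7, 58.6 and 55.8 CPM (-0.90 ± 0.03, edgeR adjusted p = 6.88e-10). LRRC61, which overlaps ACTR3C, fell by 2.72 ± 0.22 (edgeR adjusted p = 7.65e-07), ATP6V0E2, a proton pump subunit, by 0.89 ± 0.07 (adjusted p = 7.29e-07), and MRPS33, a mitochondrial ribosomal protein, by 0.68 ± 0.06 (adjusted p = 1.05e-06).

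AASS and ADAM22, lowest in SUDHL16, also moved down in SUDHL6 by less than 1.5-fold. AASS went from 11.8, 14.3 and 12.7 to 9.43, 9.58 and 8.37 CPM (edgeR log2 fold change -0.51 ± 0.09 SE, adjusted p = 6.49e-04), and ADAM22 from 62.4, 62.6 and 59.5 to 43.4, 42.7 and 42.6 (-0.53 ± 0.03, adjusted p = 7.00e-08). Other SUDHL6 calls were UPK3BL1 (raised) and KIAA1549, KCP, KDM7A and ACTR3B (lowered), of which all but KIAA1549 were chosen for naming after their values were seen. The bin at 140 to 150 Mb, low in SUDHL16, was the lowest of the arm in SUDHL6 too, with a median of -0.19 and 6 of 23 members above 0. Of its 28 members tested there, 4 were called lowered and 1 raised, where 4.65% of all genes were lowered and 4.31% raised.

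**Figure D5:**
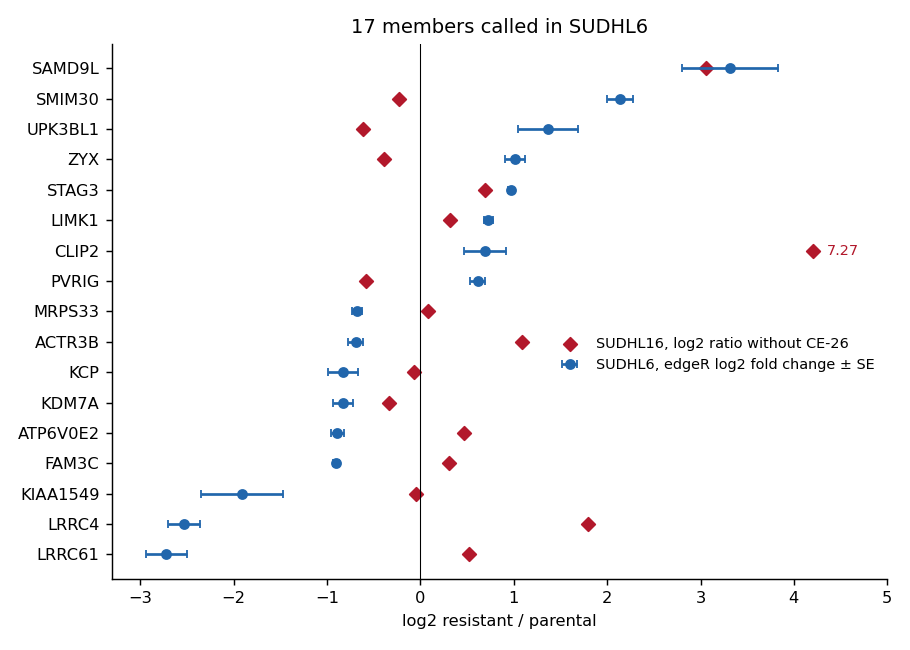
Log2 resistant over parental (x axis) of 17 members called in SUDHL6 (y axis), with the SUDHL6 edgeR fold change and its standard error (circles) and the SUDHL16 log2 ratio without CE-26 (diamonds). SAMD9L is far above 0 in both lines, CLIP2 stands at 0.69 in SUDHL6 and 7.27 in SUDHL16, and LRRC4 lies at -2.53 in SUDHL6 and 1.80 in SUDHL16.

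The member nearest the centromere, ZNF736, had 72.9 and 69.3 CPM in SUDHL16 CE-25 and CE-27 against 49.7, 70.8 and 47.7 (log2 ratio -0.35, -0.15 with CE-26), and the last member, DYNC2I1, a dynein-2 subunit, 11.4 and 13.3 against 12.8, 16.7 and 22.2 (0.48, 0.09 with CE-26). Just inside the level of 5 CPM lay VGF (5.19 CPM, log2 ratio 0.49) and KIAA1549 (5.38 CPM, -0.05), and just outside lay ZNF775 (4.71 CPM, 0.66) and CASTOR2 (4.44 CPM, -0.47).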

How the data were processed

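RNA from 12 libraries of 2 established lymphoma lines was analysed, 3 per group, grouped by the line and venetoclax status given in the labels. The authors used TrimGalore for trimming, HISAT2 for alignment (GRCh38) and StringTie for transcript assembly, and deposited whole-number counts per gene for each library, without normalization. The counting tool, its annotation and its use of strand are not given in the sources used here. Of 60675 identifiers, 56558 were matched to GENCODE release 44, which gave symbols, types and positions. The labels carry no replicate numbers and do not say whether libraries came from separate cultures, so p-values measure only the spread between these libraries.

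From the counts, CPM were computed over library totals, and the log2 ratio of mean resistant to mean parental CPM was centred on the median of expressed protein-coding genes. CE-26 was left out of SUDHL16 ratios, as in the choice of members, and ratios with it are given for most named members. A group with no read was set to 3 reads over its summed totals, which covers counting error only. Each line was fitted alone with edgeR 4.0.16 in R 4.3.3 (filterByExpr, TMM, quasi-likelihood test, two-sided), and a call needed a p of under 0.05 after Benjamini-Hochberg adjustment over all genes tested and a change of at least 1.5-fold. The fit was tested on simulated data. Alternatives were DESeq2 1.42.0, other scalings and filters, a fit of all 12 libraries and each library left out. Promoters are from RefSeq (GRCh38.p14).

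The members and lists were chosen with earlier results of these data known. Members named in the text were the 8 highest and 8 lowest SUDHL16 ratios with separate groups, the 5 raised and 5 lowered SUDHL6 calls with the smallest adjusted p, the 3 of each function list and the 5 overall with the highest mean CPM, both ends by position, the neighbors of the level, and genes often discussed in lymphoma. 1 member chosen by this rule is not reported here.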

Additional observations from a re-analysis of the deposited data

Results flagged for a closer look

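For the arm as a whole and for 7 of the named members, every resistant SUDHL16 library (without CE-26) lay above or below all parental ones and every resistant SUDHL6 library on the opposite side. The difference between the lines was not tested, line and library method cannot be told apart, and in SUDHL6 29.5% of expressed genes lay wholly above and 30.2% wholly below. For the arm, the median log2 ratio was 0.416 in SUDHL16 and -0.0097 in SUDHL6, so the SUDHL6 value lay close to 0 and its library medians between -0.013 and 0.010.

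Of the members, IRF5 had a log2 ratio of 3.19 in SUDHL16 and an edgeR log2 fold change of -0.49 in SUDHL6. LRRC4, inside SND1, stood at 1.80 and -2.53, NAMPT at 0.97 and -0.34, SAMD9 at 0.49 and -0.41, TRRAP at 0.43 and -0.08, and SND1 at 0.42 and -0.08. BAZ1B ran the other way, at -0.24 in SUDHL16 and 0.02 in SUDHL6, and its SUDHL16 groups overlapped once CE-26 was kept.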

How the results depend on the processing

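No paired analysis was possible because the labels give no replicate numbers. The SUDHL16 median of 0.416 moved by less than the spread between libraries with TMM, DESeq2 or upper-quartile factors, with no centring, with a level of 20 CPM and with the genes left out by name kept. It was 0.377 at a level of 1 CPM, 0.402 with CE-26 kept, and 0.379 when centred within classes of GC content and exon length, an alternative chosen after seeing the data. With 1 library left out it ran from 0.369 to 0.415. The SUDHL6 median of -0.0097 was -0.0058 at 1 CPM and -0.0012 at 20 CPM, and ran from -0.0213 to -0.0093 with 1 library left out.

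The 18 SUDHL6 calls became 4 in 1 fit of all 12 libraries, whose spread includes that of SUDHL16, and stayed between 17 and 20 with 1 library left out. The share of all genes called in SUDHL6 was 8.96%, 0.71% in the fit of all 12 libraries, and 7.98% to 8.67% with 1 library left out. The 18 SUDHL16 calls (6.34% of members, 5.30% of all genes) became 49 with DESeq2 (17.3% and 10.4%) and 86 in the fit of all 12 libraries (30.3% and 14.55%). They ran from 6 without CE-30 to 32 without CE-26, with 9 without CE-25 or CE-27 and 7 without CE-28 or CE-29. The share of all genes called moved as well, to 1.955% without CE-30 and 10.05% without CE-26. It was 2.44% without CE-25, 2.70% without CE-27, 1.885% without CE-28 and 1.67% without CE-29. The cause of these changes was not tested. Of 66 named members, 4 changed the sign of their SUDHL16 ratio with CE-26 kept (MRPS33, EIF4H, CDK14 and TRIM56). Of 14 named members called in SUDHL6, 10 lost the call in the fit of all 12 libraries, where 37 of the 41 named members with an edgeR adjusted p under 0.05 no longer had one. With 1 library left out at most 2 of the 14 calls were lost, and without the filter 1. No fold change of these 41 changed sign. Depth limits CE-26 most, at 4131927 reads.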

Other observations

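Genes of the same region that were not members gave their own values. The 62 expressed 7q genes of other types than protein-coding, at 5 CPM or more, had a median SUDHL16 log2 ratio of 0.38, with 49 (79.0%) above 0, 26 with all resistant libraries above the parental ones without CE-26 and 2 with all below (16.2% and 20.7% of such genes over the genome). With CE-26 kept the median was 0.31 and 45 lay above 0. Over the whole genome, the 1089 such genes had a median of -0.08 with 503 above 0. Many of them lie inside or against protein-coding genes, and since the use of strand in counting is not given, their reads cannot be told apart from those of their hosts. The 14 protein-coding genes left out by name had a median of 0.17 with 9 above 0.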
